A study of Mus musculus with 8 samples.

Results

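The collagen genes were the 82 probe sets whose annotation gives exactly 1 symbol of the form Col, a number, a and a number, which stand for 42 genes among 18193 genes with 1 symbol on the array. Of these, 47 probe sets and 30 genes were bright enough to be tested. The samples were subcutaneous preadipocytes, the precursors of fat cells, of C57BL/6 background, taken from newborns of day 2. Both groups carried the genotype Dicer lox/lox, floxed alleles of the enzyme that cuts microRNA precursors into mature microRNAs. All cells received adenovirus at 750 MOI with polybrene at 4 µg/mL and were harvested 4 days later. The virus was Ad5CMVeGFP, which encodes GFP, in 4 control samples, and Ad5CMVCre-eGFP, which adds Cre recombinase under the CMV promoter, in 4 Dicer knockout samples. No array is of the Cre virus in cells without floxed Dicer, so an effect of Cre or of its virus cannot be told apart from the loss of Dicer. The labels call the arrays of a group biological replicates but name neither animals nor cultures, and p-values cover only the spread among these arrays, which may be technical. The comparison asks whether the messages for collagen chains differed after the virus meant to delete Dicer.

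Collagens are secreted proteins made of chains wound into a triple helix, and they are the main product of fibroblasts and of fibroblast-like preadipocytes. Fibrillar collagens form the tensile fibrils of connective tissue, type IV collagen forms the sheet of the basement membrane that surrounds each mature fat cell, and the other classes coat fibrils, build beaded filaments or anchor cells. Several collagen messages are known targets of the miR-29 family, whose members pair with sites in the untranslated end of the message. These microRNAs are made by Dicer, and the arrays did not measure them. The mature mouse sequences from RefSeq (GRCm38.p6) are shown because they carry the seed on which that targeting rests, bases 2 to 8, in capitals. Mature miR-29a-3p is encoded at chr6:31062673-31062694 on the minus strand and mature miR-29c-3p at chr1:195037600-195037621 on the plus strand. Mature miR-29b-3p is encoded at both chr1:195037091-195037113 (plus) and chr6:31063025-31063047 (minus).

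mmu-miR-29a-3p: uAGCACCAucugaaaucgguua
mmu-miR-29b-3p: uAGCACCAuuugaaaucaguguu
mmu-miR-29c-3p: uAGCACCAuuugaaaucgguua

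All of these share the seed AGCACCA and differ only after it.

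No collagen gene passed the threshold, an adjusted p of 0.05, in either direction. In the unpaired fit the lowest limma adjusted p among the 30 genes was 0.999, and 0.0037% of all 27026 tested probe sets were called. In the paired fit, which takes same-numbered control and knockout arrays as pairs, it was 0.313, for Col15a1, and 0.0481% of all tested probe sets were called. At an unadjusted limma p below 0.05 the unpaired fit gave 0 of 30 collagens, beside 3.93% of all 13259 tested genes. The paired fit gave 3 higher at that level (Col5a1, Col5a3 and Col4a2), beside 4.96% of all genes, and 1 lower (Col15a1), beside 5.35% of all genes. The lowest and highest arrays of both groups overlapped for all 30 collagens, and 2.52% of all genes had groups that did not overlap.

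The log2 difference, knockout minus control, was above 0 in 20 of the 30 collagens, beside 49.6% of all tested genes, and its median was 0.080, beside -0.0020 over all genes. This excess rested on knockout array 3. Without that array 11 of 30 were above 0 and the median was -0.035, and without both arrays numbered 3 the count was 14 and the median -0.025. The median over the collagens was 0.027 in pair 1, 0.16 in pair 2, 0.14 in pair 3 and -0.085 in pair 4, so that the 4 pairs did not share a direction. In 4 of 4 pairs the knockout array was the higher for 5 collagens (Col5a2, Col5a3, Col4a2, Col4a5 and Col20a1), beside 8.64% of all genes. It was the lower in 4 of 4 pairs for 2 collagens (Col15a1 and Col6a2), beside 9.44%. As these are whole cultures, fewer cells of a type and less RNA per cell cannot be told apart.

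**Figure D1:**
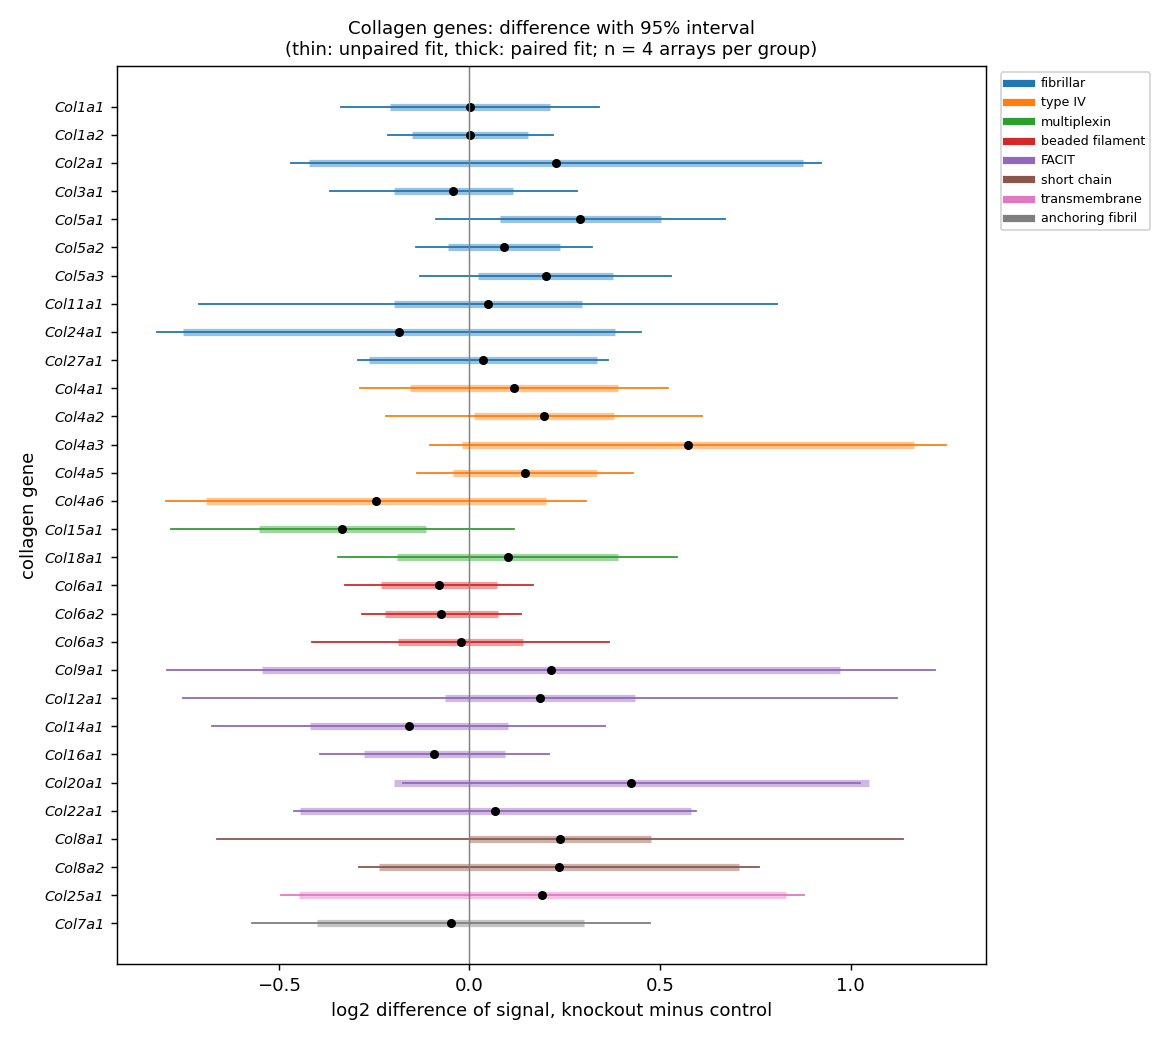
Log2 difference of signal, knockout minus control (x axis), for each of the 30 tested collagen genes (y axis), with the 95% interval of the unpaired fit as a thin line and of the paired fit as a thick line (n = 4 arrays per group). The unpaired interval of every collagen includes 0, and the paired interval lies wholly above 0 for Col5a1, Col5a3 and Col4a2 and wholly below 0 for Col15a1, before any adjustment for the number of genes.

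Of the 11 fibrillar collagen genes 10 were tested, and 8 of these had a difference above 0, with a class median of 0.042. The 8 included Col1a1 and Col1a2, which lay within 0.002 of 0. Without knockout array 3, Col1a1 (-0.14), Col1a2 (-0.037), Col11a1 (-0.11) and Col27a1 (-0.015) were below 0 too. Only Col2a1, Col5a1, Col5a2 and Col5a3 then stayed above 0. Control array 3 was also high for the collagens, and leaving it out instead moved these values up. Col1a1 was then 0.094, Col1a2 0.050, Col11a1 0.13 and Col27a1 0.055. Types I and III, the bulk of the fibrils in skin and fat stroma, had log2 differences between -0.042 and 0.0017. Col1a1 (1423669_at), the main chain of type I collagen, gave signals of 62581, 48974, 73657 and 60363 in controls 1 to 4, and of 56804, 61005, 80847 and 48842 in knockouts 1 to 4. Knockout array 3 was the highest and knockout array 4 the lowest, with the controls between them. Its means were 61390 ± 10120 (SD, n = 4) for controls and 61870 ± 13620 (SD, n = 4) for knockouts, and its log2 difference was 0.0015 (SE 0.16, 95% interval -0.34 to 0.34). Col1a2 (1450857_a_at), the partner chain, gave signals of 106122, 112794, 133467 and 132787 in controls 1 to 4, and of 111516, 118887, 131059 and 122672 in knockouts 1 to 4. All 4 knockout arrays lay within the range of the controls. The log2 difference was 0.0017 (SE 0.10, 95% interval -0.21 to 0.22), and the highest array was 1.26 times the lowest. Col3a1 (1427883_a_at), the chain of type III collagen that co-assembles with type I, gave signals of 97572, 121360, 135536 and 157473 in controls 1 to 4, and of 98955, 118158, 140257 and 137245 in knockouts 1 to 4. Control array 1 was the lowest and control array 4 the highest, so the knockouts again lay inside the control range. Knockout minus control, the log2 difference was -0.042 (SE 0.15, 95% interval -0.37 to 0.28).

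The other probe sets of these genes did not all give the same value. A dimmer probe set of Col1a1 (1455494_at) had means of 21590 ± 6995 (SD, n = 4) for controls and 25340 ± 5786 (SD, n = 4) for knockouts, a log2 difference of 0.26 (SE 0.21), and was higher in 4 of 4 pairs. Its paired limma adjusted p was 0.325. A dimmer probe set of Col3a1 (1427884_at) had a log2 difference of 0.20 (SE 0.16), opposite in sign to the brighter one. Of the 15 collagens with several tested probe sets, 4 held opposite signs (Col11a1, Col1a2, Col27a1 and Col3a1). For Col1a2 these lay between -0.025 and 0.032, and for Col27a1 between -0.32 and 0.036.

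Type V collagen, whose chains nucleate fibrils and limit their width, had a difference above 0 for 3 of 3 genes, with values between 0.091 and 0.29. Col5a1 (1416740_at), the chain common to most type V molecules, gave signals of 15857, 12381, 18028 and 12029.8 in controls 1 to 4, and of 14941, 17739.7, 24349 and 14844 in knockouts 1 to 4. The knockout array was the higher in pairs 2, 3 and 4 and the lower in pair 1, and control array 3 was above 3 of the knockouts. Its means were 14570 ± 2879 (SD, n = 4) for controls and 17970 ± 4461 (SD, n = 4) for knockouts. On the log2 scale the difference was 0.29 (SE 0.17, 95% interval -0.088 to 0.67) in the unpaired fit, and the paired interval was 0.081 to 0.50, with a paired limma adjusted p of 0.368. Without knockout array 3 it was 0.14. The 3 tested probe sets of Col5a1 had differences between 0.23 and 0.29. Col5a2 (1422437_at), the second chain of the common heterotrimer, gave signals of 46928, 48892, 58199 and 53407 in controls 1 to 4, and of 49126, 54022, 63956 and 54153 in knockouts 1 to 4. The pairs differed by 0.066, 0.14, 0.14 and 0.02, all above 0 but small beside the spread within each group, in which control array 3 exceeded 3 knockouts. Between the groups the log2 difference was 0.091 (SE 0.11, 95% interval -0.14 to 0.32). Without knockout array 3 it was 0.019 and without control array 1 0.045, whereas the dimmer probe set of Col5a2 (1450625_at) gave 0.27 (SE 0.25). Col5a3 (1419703_at), a less widespread type V chain, gave signals of 5074, 4804, 7133 and 5575 in controls 1 to 4, and of 5465, 6012, 7977 and 6477 in knockouts 1 to 4. Each knockout was above the control of its own number, whereas control array 3 was above the knockouts 1, 2 and 4. This gave a log2 difference of 0.20 (SE 0.15, 95% interval -0.13 to 0.53), with a paired limma adjusted p of 0.488. For Col5a3 it was 0.096 without knockout array 3, 0.13 without control array 2 and 0.32 without control array 3.

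Among the remaining fibrillar chains, limits in the unpaired fit were wide for Col2a1, Col11a1 and Col24a1 and narrower for Col27a1. Col2a1, the fibrillar collagen of cartilage, had a log2 difference of 0.23 (SE 0.32). Its signals ran from 338 to 925 in controls and from 449 to 1099 in knockouts. Col24a1 had -0.18 (SE 0.29), Col27a1 0.036 (SE 0.15) and Col11a1, a minor fibrillar chain of cartilage and other tissues, 0.048 (SE 0.35). Col11a2 was below the filter.

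Of the 6 type IV genes, which encode the network of the basement membrane, 5 were tested and 4 of these were above 0, with a class median of 0.15. The chains in this class are encoded as neighbours that start head to head. Col4a1 and Col4a2 have annotated starts that overlap by 22 bases, at chr8:11312805-11312826 in GRCm38.p6. The interval with 4 more bases on each side (chr8:11312801-11312830) is shown on the plus strand, because the chains it starts belong to the same molecule. Capitals mark its match to GGGCGG, the core letters of a GC box.

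Col4a1-Col4a2 starts: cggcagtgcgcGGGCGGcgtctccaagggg

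Of 300-base windows around annotated starts (250 bases before to 50 after), searched on both strands, 61.1% of the 36 windows of collagen genes held GGGCGG, beside 35.7% of all 32851 windows. CCAAT was in 36.1% of the collagen windows and 37.4% of all, and TATAA in 19.4% and 24.9%. RefSeq entries were matched for 33 of the 42 collagen genes, and the windows of Col4a1 and Col4a2 share 78 bases. A match describes the letters only.

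Col4a1 (1452035_at) and Col4a2 (1424051_at) encode the chains of the type IV molecule found in nearly all basement membranes. Col4a1 gave signals of 23172, 18330.3, 29109 and 26815 in controls 1 to 4, and of 18121, 28553, 33768 and 26282 in knockouts 1 to 4. Knockout array 1 was the lowest and knockout array 3 the highest of the 8. The log2 difference was 0.12 (SE 0.19, 95% interval -0.29 to 0.52), and the pairs went both ways, at -0.35, 0.64, 0.21 and -0.029. Col4a2 gave signals of 10143, 9989, 17469.8 and 13033 in controls 1 to 4, and of 11596, 13656, 19081 and 13158 in knockouts 1 to 4. Both arrays numbered 3 were the highest, and each knockout was above the control of the same number. Knockout minus control, the log2 difference was 0.20 (SE 0.19, 95% interval -0.22 to 0.61), the paired interval was 0.012 to 0.38, and the paired limma adjusted p was 0.514. Leaving out single arrays gave 0.051 (without knockout array 3) to 0.36 (without control array 3), and 0.095 and 0.10 without control arrays 2 and 1. The pair differences of Col4a2 were 0.19, 0.45, 0.13 and 0.014.

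Col4a5 (1425476_at), on the X chromosome beside Col4a6 and known from inherited kidney disease, gave signals of 9374, 8135, 9055 and 7486 in controls 1 to 4, and of 9668, 10760, 9971 and 7493 in knockouts 1 to 4. Knockout arrays 1, 2 and 3 were above all controls, and knockout array 4 was next to control array 4 at the bottom. On the log2 scale the difference was 0.15 (SE 0.13, 95% interval -0.14 to 0.43), and it was 0.081 without knockout array 2, 0.087 without control array 4 and 0.25 without knockout array 4. Col4a3 (1450224_at), a chain of the kidney filter, was dim and gave signals of 118, 417, 433 and 274 in controls 1 to 4, and of 449, 415, 602 and 396 in knockouts 1 to 4. Control array 1 was far below the other 7. Between the groups the log2 difference was 0.57 (SE 0.31, 95% interval -0.10 to 1.25), the largest of the 30, and it was 0.27 without control array 1 and 0.36 with a pseudocount 4 times larger. Col4a6, whose start lies 1343 bases from that of Col4a5, had a log2 difference of -0.245 (SE 0.25). Dimmer probe sets below the filter were opposite in sign, at 0.57 for Col4a6 (1421007_at) and -0.27 for Col4a3 (1438779_at). Col4a4 was below the filter.

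The multiplexins Col15a1 and Col18a1 link basement membranes to the tissue around them, and their ends are released as restin and endostatin. Their differences were of opposite sign. Col15a1 (1448755_at) gave signals of 4241, 4128, 6784 and 4268 in controls 1 to 4, and of 4194, 2937, 5250.1 and 3059.7 in knockouts 1 to 4. Each knockout was below its same-numbered control, by a log2 of -0.016 in pair 1 and of -0.48, -0.37 and -0.47 in pairs 2 to 4. Knockout array 3 was nonetheless above 3 of the controls, because both arrays numbered 3 were high. The means were 4855 ± 1287 (SD, n = 4) for controls and 3860 ± 1086 (SD, n = 4) for knockouts. This gave a log2 difference of -0.33 (SE 0.21, 95% interval -0.78 to 0.12), the paired interval was -0.55 to -0.11, and the paired limma adjusted p was 0.313. It was -0.16 without control array 3, -0.22 without knockout array 2 and -0.49 without knockout array 3. Col18a1 (1426955_at) gave signals of 2626, 4046, 4225 and 4674 in controls 1 to 4, and of 3455, 3704, 5953 and 3656 in knockouts 1 to 4. Control array 1 was the lowest and knockout array 3 the highest. The log2 difference was 0.10 (SE 0.20, 95% interval -0.34 to 0.55), and it was -0.078 without knockout array 3.

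Type VI collagen forms beaded filaments beside cells and is an abundant matrix component of adipose tissue. All 3 of its tested genes had values just below 0, and none passed the test. Col6a1 (1448590_at), which shares its molecule with the other chains below, gave signals of 45551, 37348, 47393 and 38514 in controls 1 to 4, and of 40748, 38561, 45472 and 34773 in knockouts 1 to 4. Every odd-numbered array was above every even-numbered one, in both groups. Knockout minus control, the log2 difference was -0.08 (SE 0.11, 95% interval -0.33 to 0.17), and leaving out single arrays gave -0.145 (without knockout array 3) to -0.017 (without knockout array 4). Col6a2 (1452250_a_at) gave signals of 34469.6, 32710.4, 37530 and 31939 in controls 1 to 4, and of 30734, 31360.3, 36527 and 31252 in knockouts 1 to 4. The knockout was lower in 4 of 4 pairs, by -0.17, -0.061, -0.039 and -0.031. Knockout arrays 1, 2 and 4 were below all controls, and knockout array 3 was above controls 1, 2 and 4. The highest array was 1.22 times the lowest. On the log2 scale the difference was -0.074 (SE 0.10, 95% interval -0.28 to 0.13), and leaving out single arrays gave -0.13 (without knockout array 3) to -0.028 (without control array 3). Col6a3 (1424131_at), the longest chain and the source of the fragment endotrophin, gave signals of 35895, 28778, 40113 and 25128 in controls 1 to 4, and of 31614, 31044, 42205 and 23557 in knockouts 1 to 4. As with Col6a1, the odd-numbered arrays were the higher in both groups. Between the groups the log2 difference was -0.023 (SE 0.18, 95% interval -0.41 to 0.37). Col6a4 and Col6a5 were below the filter.

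**Figure D2:**
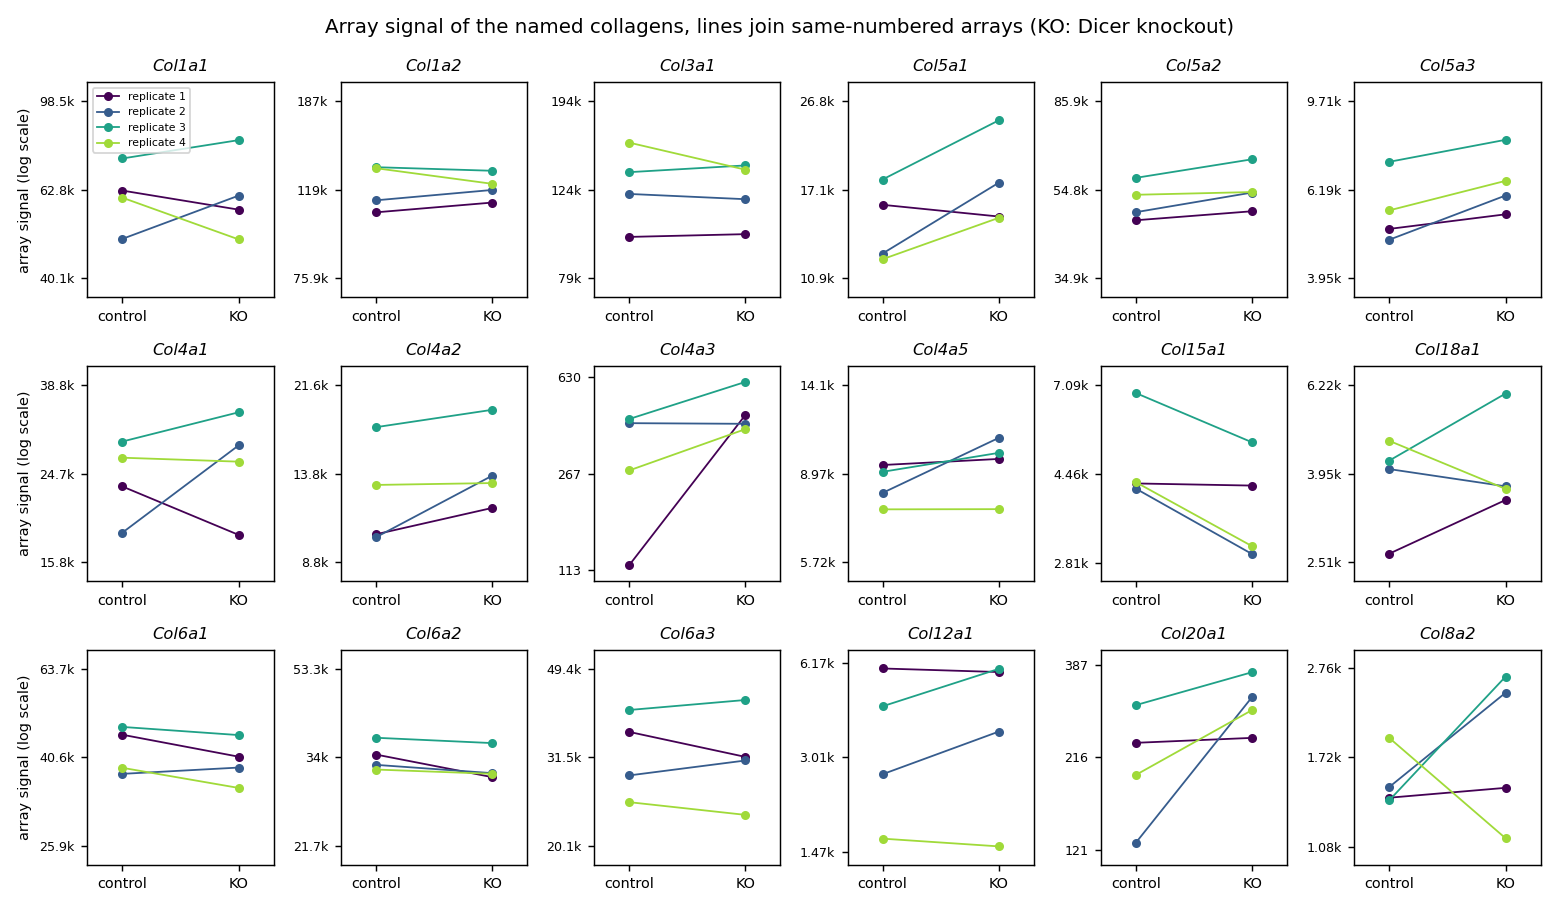
Array signal on a log scale (y axis) of the named collagens in control and Dicer knockout (KO) arrays (x axis), 1 panel per gene, with lines joining same-numbered arrays. The points of both groups overlap in every panel, and the knockout end of the line is the lower in all 4 pairs for Col15a1 and Col6a2 and the higher in all 4 for Col5a2, Col5a3, Col4a2, Col4a5 and Col20a1.

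The fibril-associated collagens with interrupted helices sit on the surface of fibrils. Of 9 such genes 6 were tested and 4 were above 0. Col12a1 (1434411_at), which links fibrils in tissue under load, gave signals of 5900, 2651, 4432 and 1629 in controls 1 to 4, and of 5743, 3661, 5884 and 1536 in knockouts 1 to 4. The arrays numbered 4 were the lowest in both groups, and all odd-numbered arrays were above all even-numbered ones. This gave a log2 difference of 0.18 (SE 0.43, 95% interval -0.75 to 1.12) in the unpaired fit, and its SE was 0.11 in the paired fit. Col20a1 (1425234_at), a dim member of the class, gave signals of 237, 126, 300.4 and 193 in controls 1 to 4, and of 244, 316, 369.8 and 291 in knockouts 1 to 4. Knockout arrays 2 and 3 were above all controls, and the others lay within the control range. The log2 difference was 0.42 (SE 0.28, 95% interval -0.17 to 1.02), with pair differences of 0.035, 0.97, 0.25 and 0.45. For Col20a1 it was 0.26 without control array 2 and 0.25 with a pseudocount 4 times larger. The others had log2 differences of -0.16 (SE 0.24) for Col14a1, which binds fibrils together, -0.092 (SE 0.14) for Col16a1, 0.068 (SE 0.24) for Col22a1 and 0.21 (SE 0.46) for Col9a1. Col9a1, a chain found on cartilage fibrils, had the widest spread of all 30 collagens, with 86.7 on knockout array 1 and 990 on knockout array 3, a ratio of 11.4. Col9a2, Col9a3 and Col19a1 were below the filter.

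Type VIII collagen, a short-chain collagen that forms lattices under endothelium and in the eye, had both genes above 0. Col8a1 (1455627_at), named after its values were seen, gave signals of 7040.1, 3379, 4156 and 1713 in controls 1 to 4, and of 6595, 4659.6, 5699 and 1893 in knockouts 1 to 4. Arrays numbered 1 were the highest and arrays numbered 4 the lowest in both groups. Knockout minus control, the log2 difference was 0.24 (SE 0.41, 95% interval -0.66 to 1.14) in the unpaired fit and its paired interval was -0.00047 to 0.47. Col8a2 (1434667_at) gave signals of 1394, 1475, 1375 and 1909 in controls 1 to 4, and of 1468, 2421, 2636 and 1126 in knockouts 1 to 4. Knockout arrays 2 and 3 were above all controls and knockout array 4 was below all of them. On the log2 scale the difference was 0.23 (SE 0.24, 95% interval -0.29 to 0.76), with 0.059 and 0.099 without knockout arrays 3 and 2 and 0.45 without knockout array 4. Col25a1, a transmembrane collagen known from neurons, had 0.19 (SE 0.32), and Col7a1, which forms the fibrils that anchor epidermis to dermis, -0.048 (SE 0.24).

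The 12 genes left untested were Col4a4, Col6a4, Col6a5, Col9a2, Col9a3, Col10a1, Col11a2, Col13a1, Col17a1, Col19a1, Col23a1 and Col26a1. They include the chains of hypertrophic cartilage (Col10a1) and of the epidermal hemidesmosome (Col17a1). The signals of their probe sets ran from 4.8 to 406, and the filter corresponds to a mean signal near 215. The brighter probe set of Col26a1 read 33.4 to 262 in controls and 33.4 to 254 in knockouts. The dimmer one (1458189_at) had means of 46.7 ± 17.1 (SD, n = 4) for controls and 16.2 ± 10.5 (SD, n = 4) for knockouts, without overlap. It was the only 1 of the 82 collagen probe sets without overlap and was picked after its values were seen. Among all tested genes 2.52% had groups that did not overlap. All signals of 1458189_at lay below 73.1, the offset added to every signal. Because Col26a1 was too dim to be tested, these values are given without a test.

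Of the collagens known from textbooks as miR-29 targets (Col1a1, Col1a2, Col3a1, Col4a1, Col4a2, Col5a1, Col5a2, Col5a3 and Col15a1), 7 of 9 had a log2 difference above 0, with a median of 0.091. Of the other 21 tested collagens 13 were above 0, with a median of 0.068. The list was written from memory and not from predicted sites, so the other 21 may hold targets too. The 9 targets held values from -0.33 for Col15a1 to 0.29 for Col5a1. The 7 above 0 included Col1a1 (0.0015) and Col1a2 (0.0017). Without knockout array 3, Col1a1 (-0.14), Col1a2 (-0.037) and Col4a1 (-0.0076) joined Col3a1 and Col15a1 below 0. Only Col4a2, Col5a1, Col5a2 and Col5a3 then stayed above 0. Without control array 3 instead, Col1a1 (0.094), Col1a2 (0.050) and Col4a1 (0.21) were above 0. Col3a1 (-0.0071) and Col15a1 (-0.16) were then still below 0. The medians of the targets by pair were 0.020, 0.32, 0.13 and -0.029 for pairs 1 to 4, so that pair 2 stood above the others. No difference between the lists was tested.

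The odd-numbered and even-numbered arrays stood apart for part of the collagens, in both groups. The level on odd-numbered arrays minus that on even-numbered arrays was 1.27 on the log2 scale for Col12a1, 1.08 for Col8a1 and 0.88 for Col11a1, beside -0.46 to 0.51 for the 5th to 95th percentile of all tested genes. Col11a1 (1449154_at), named after its values were seen, gave signals of 5984, 3920.1, 4360.1 and 1706 in controls 1 to 4, and of 4766, 3858, 5215 and 2093 in knockouts 1 to 4. Its odd-numbered arrays were all above its even-numbered ones. The same held for Col12a1, Col6a1 and Col6a3, so for 4 of 30 collagens, beside 5.5% of all genes. In the other direction it held for 0 collagens, beside 768 of all 13259 genes. Over the 47 tested collagen probe sets these counts were 7 and 1, beside 1872 and 1420 of all 27026. The 1 was a dimmer probe set of Col18a1 (1418237_s_at). For Col8a1, Col11a1 and Col12a1 the unpaired SE was 0.35 to 0.43 and the paired SE was 0.11. The 18S ribosomal RNA 5′ probe set moved with this split, at 5906 to 14007 on odd-numbered and 30584 to 43030 on even-numbered arrays, and its part in these levels was not tested. Within the odd-numbered pairs the median collagen difference between knockout and control was 0.086, with 18 of 30 above 0, and within the even-numbered pairs it was 0.0069, with 16 of 30 above 0. The split was seen in these data, so these values carry no test.

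**Figure D3:**
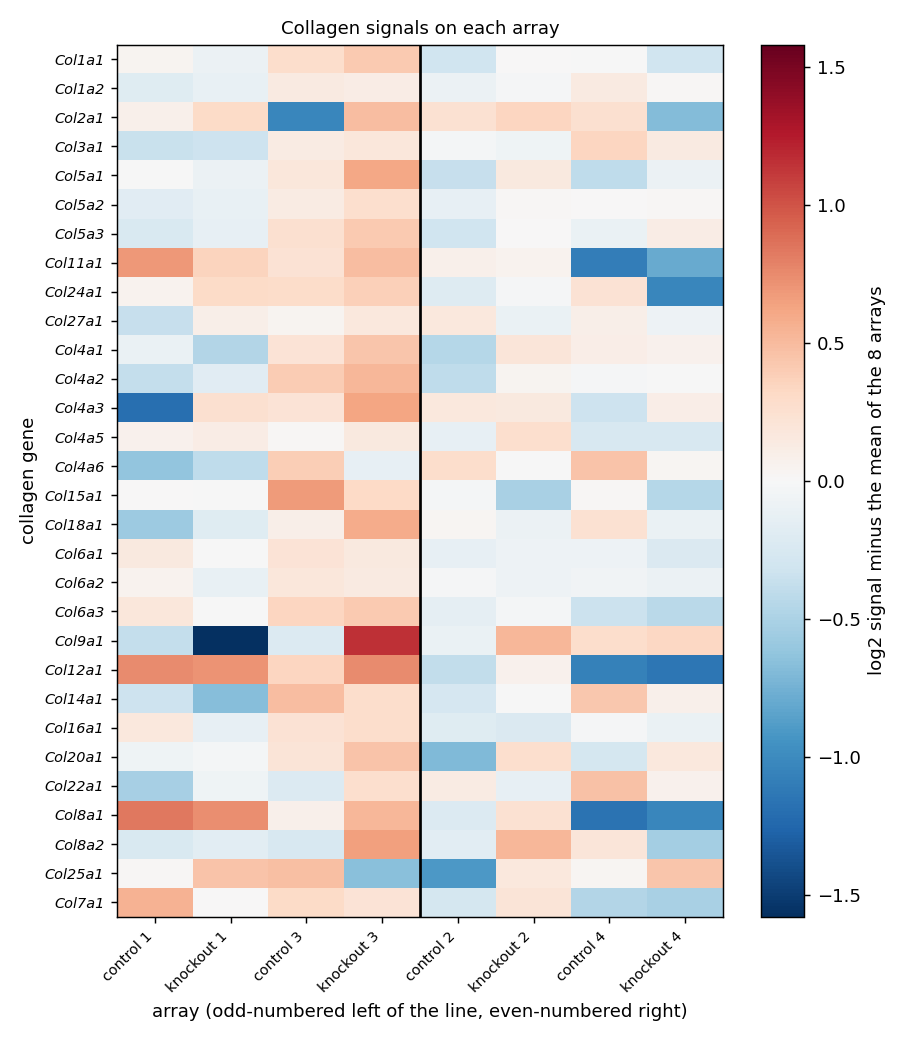
Log2 signal minus the mean of the 8 arrays (colour) for each tested collagen gene (y axis) on each array (x axis), with odd-numbered arrays left of the line and even-numbered arrays right of it. The odd-numbered side is above the even-numbered side by 1.27 for Col12a1, 1.08 for Col8a1 and 0.88 for Col11a1, and knockout array 3 has the highest median deviation, 0.39, followed by control array 3 at 0.21.

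The spread between arrays differed widely among the collagens. The highest array exceeded the lowest by a median of 2.21 times over the 30 collagens, beside 1.68 times over all tested genes. The ratio was lowest for Col6a2 (1.22), Col1a2 (1.26), Col5a2 (1.36) and Col6a1 (1.36), and highest for Col9a1 (11.4), Col4a3 (5.10) and Col8a1 (4.11). The unpaired 95% limits were accordingly narrow for the type I and type VI chains, at the widest -0.41 to 0.37 on the log2 scale, for Col6a3, and reached 1.25 for Col4a3.

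Collagen chains are hydroxylated, folded, trimmed, cross-linked and bound by receptors through a further set of proteins. Of 44 such genes 39 had a probe set with 1 symbol (not Fkbp10, Adamts2, Adamts14, Loxl2 or Itga11) and 34 were tested (not Colgalt2, Tll1, Pcolce2, Itga1 or Lair1). None passed the threshold in either fit (lowest limma adjusted p 0.999 unpaired and 0.154 paired), with 12 above 0 and 22 below 0 and a median of -0.041. At an unadjusted limma p below 0.05 the unpaired fit gave 2 of them, Loxl3 and Loxl4, beside the 3.93% of all genes given above. The paired fit gave 3 higher (P4ha1, Loxl3 and Loxl4), beside 4.96% of all genes, and 1 lower (Plod1), beside 5.35%. In 4 of 4 pairs 4 of the 34 were higher, beside 8.64% of all genes, and 4 were lower, beside 9.44%.

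Loxl3 and Loxl4 belong to the lysyl oxidase family, which cross-links collagen and elastin. Loxl3 (1418269_at) gave signals of 4795, 3858, 3599 and 3965 in controls 1 to 4, and of 4898, 5726, 6539.6 and 6934 in knockouts 1 to 4. Its knockout arrays were all above its control arrays. The means were 4054 ± 517 (SD, n = 4) for controls and 6024 ± 904 (SD, n = 4) for knockouts, the log2 difference was 0.56 (SE 0.14, 95% interval 0.26 to 0.86), and the paired limma adjusted p was 0.154. The pairs differed by 0.03, 0.56, 0.85 and 0.80. Without pair 1, in which the arrays were nearly equal, the paired difference was 0.73 with a limma adjusted p of 0.022, the only setting in which a gene of this list was called. Loxl4 (1421153_at) gave signals of 767, 714, 505 and 843 in controls 1 to 4, and of 1009.8, 1183, 1361 and 866 in knockouts 1 to 4. These groups did not overlap either, although knockout array 4 was next to control array 4. Between the groups the log2 difference was 0.60 (SE 0.19, 95% interval 0.17 to 1.02), with a paired limma adjusted p of 0.373. With the mean over all tested probe sets of Loxl4 it was 0.22. Groups without overlap and higher in knockouts were thus seen for 2 of 34, beside 1.3% of all genes. The family founder Lox had -0.019 (SE 0.10) and Loxl1 -0.145 (SE 0.15).

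P4ha1, Plod1 and Adamts3 had the next smallest unadjusted p of the list. P4ha1, a catalytic subunit of prolyl hydroxylase, which stabilises the triple helix, had means of 4871 ± 414 (SD, n = 4) for controls and 5661 ± 645 (SD, n = 4) for knockouts and a log2 difference of 0.21 (SE 0.12, 95% interval -0.047 to 0.47), higher in 4 of 4 pairs. For P4ha1 it was 0.14 both with the mean over its tested probe sets and without knockout array 3. Plod1, a lysyl hydroxylase that prepares cross-link sites, had means of 2602 ± 456 (SD, n = 4) for controls and 2123 ± 254 (SD, n = 4) for knockouts and a log2 difference of -0.28 (SE 0.15, 95% interval -0.60 to 0.051), lower in 4 of 4 pairs. For Plod1 it was -0.15 with the mean over all its tested probe sets and -0.18 without control array 3. Adamts3, which removes the amino-terminal propeptide of procollagen, had means of 320 ± 71.8 (SD, n = 4) for controls and 446 ± 108 (SD, n = 4) for knockouts and a log2 difference of 0.40 (SE 0.24, 95% interval -0.12 to 0.92), higher in 4 of 4 pairs. Without control array 4 that of Adamts3 was 0.26, and with a pseudocount 4 times larger 0.27. The paired limma adjusted p was 0.473 for P4ha1, 0.441 for Plod1 and 0.65 for Adamts3. By role, 3 of 10 genes of prolyl hydroxylation, 2 of 4 of lysyl hydroxylation and glycosylation, 2 of 5 of chaperones and export, 1 of 3 of propeptide cleavage, 2 of 4 of cross-linking, 2 of 6 of receptors and uptake and 0 of 2 of matrix binding were above 0. Serpinh1, the collagen chaperone, had -0.056 (SE 0.13), Bmp1, which trims the carboxy-terminal propeptide, -0.17 (SE 0.15), and the receptors Ddr1 and Ddr2 had 0.33 (SE 0.27) and -0.17 (SE 0.20).

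**Figure D4:**
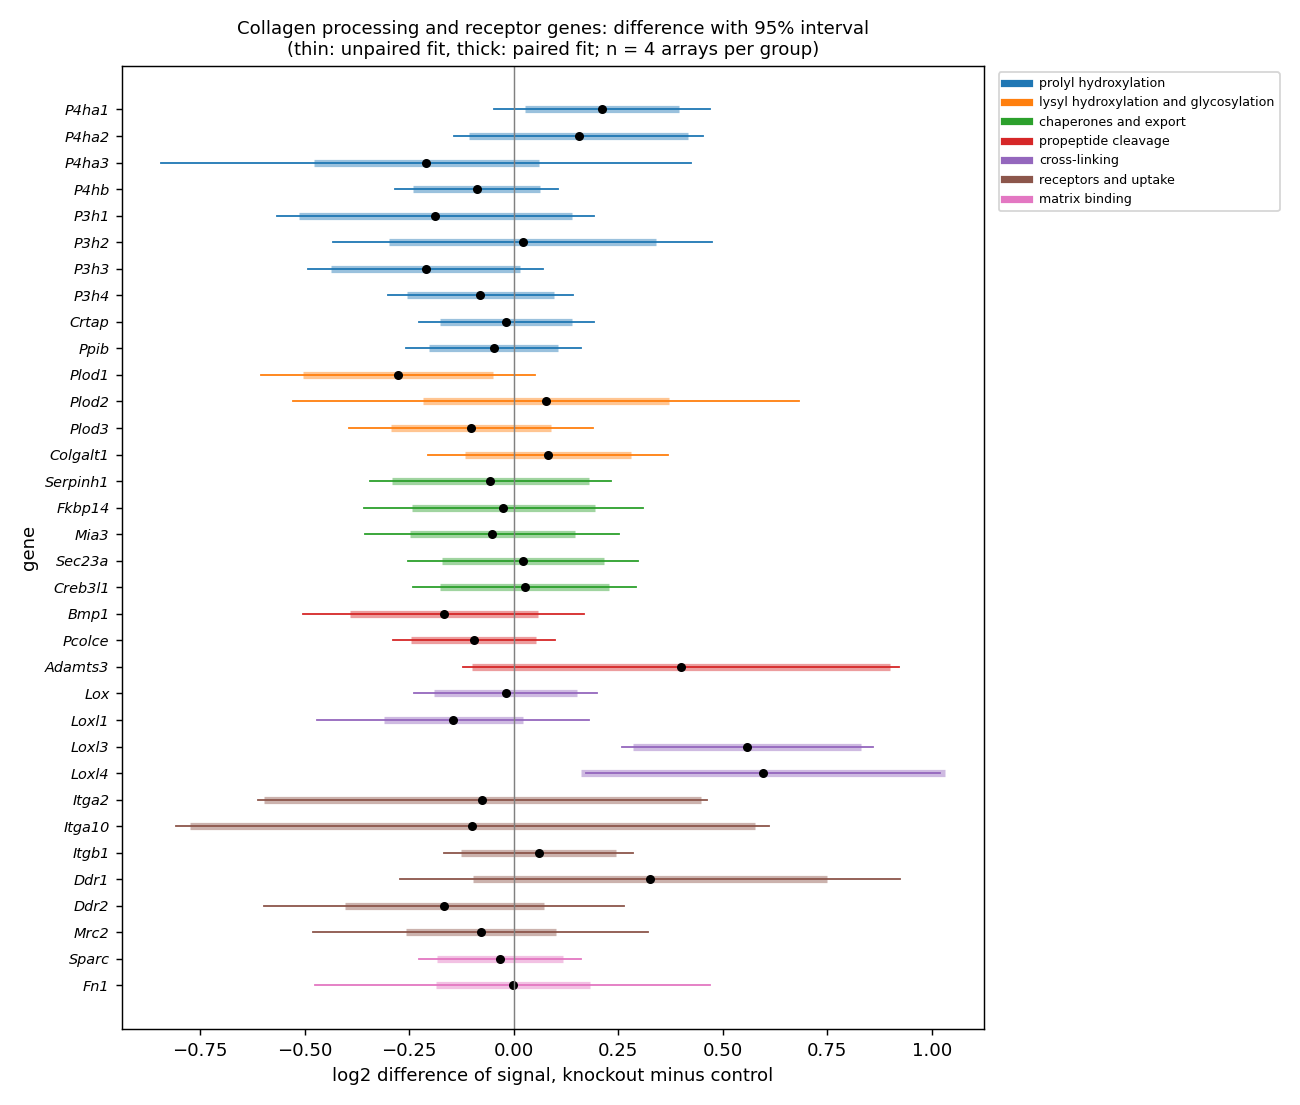
Log2 difference of signal, knockout minus control (x axis), for the 34 tested genes of collagen processing, cross-linking and receptors (y axis), with the 95% interval of the unpaired fit as a thin line and of the paired fit as a thick line (n = 4 arrays per group). Loxl3 (0.56) and Loxl4 (0.60) lie farthest to the right, and Plod1 (-0.28) farthest to the left.

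The median signal was 321 to 419 on the 8 arrays, and their number limits the precision. The preadipocyte and stromal fibroblast markers were present, with 9 of 10 tested and a summed signal of 230093 to 257552 in controls and 200452 to 252718 in knockouts. Among them only Dlk1 was called, lower in the paired fit (limma adjusted p = 0.044). Its groups overlapped, and its limma adjusted p was 0.999 in the unpaired fit. The others went both ways, with Cd34, Thy1, Pparg and Vim above 0 and Pdgfra, Pdgfrb, Dcn and Lum below. Markers of other cell types were read in the same way. The summed signal of 5 skeletal muscle markers was 1005 to 1245 in controls and 1552 to 2217 in knockouts, without overlap, with Myog and Myh3 under the filter and 0 of the others called, and the part of this in the collagen values was not tested. For the other lists the ranges of the groups overlapped. These were macrophages and leukocytes (4 of 5 tested), endothelium (3 of 5), pericytes and smooth muscle (3 of 5), keratinocytes and epithelium (2 of 5), Schwann and neural cells (3 of 5), cartilage (3 of 5) and bone (1 of 5). The 2 tested probe sets of Dicer1 had log2 differences of -0.26 (SE 0.27) and -0.15 (SE 0.20). Since no source used here places them inside or outside the excised stretch, they do not check the deletion.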

How the data were processed

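The 8 arrays are of 4 control and 4 Dicer knockout samples. The authors deposited 1 linear intensity (signal) for each probe set and array, made with GCOS 1.3 and MAS5 per the submitters' processing notes, and their 2% trimmed mean is 1500 on every array. With R 4.3.3 and limma 3.58.1 (figures with Python 3.11.15 and matplotlib 3.10.9), log2(signal + 73.1) was fitted with lmFit and tested two-sided with eBayes and its trend option. The offset of 73.1 is the 20th percentile over the arrays and makes differences of dim probe sets look smaller. Tests covered 27026 probe sets, the upper 60% by mean log2 value, without the 64 array controls. Adjustment was by Benjamini-Hochberg over all of these, with a threshold of 0.05. For a gene, the brightest of its tested probe sets with 1 symbol in the platform annotation, which can be old, gives the values. Beyond ranking the probe sets of a gene by brightness, signals of different probe sets are not compared with each other. The marker sums add them, so bright probe sets weigh most there.

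Deviations from the group means correlated at 0.34, 0.19, 0.20 and 0.37 for the pairs numbered 1 to 4, and at -0.35 to 0.15 for a control and a knockout of different number. The numbers were therefore taken to pair the samples, although the labels give no meaning for the numbers. Values per array are given for 13 chosen chains and for the 8 collagens with the smallest unpaired p, and of the 34 processing and receptor genes the 5 with the smallest p are named. Col8a1, Col11a1, Col26a1, Lox, Loxl1, Serpinh1, Bmp1, Ddr1 and Ddr2 were named outside this rule, after their values were seen. The members and lists were chosen with earlier results of these data known. Alternatives were the pairing, pseudocounts, filters, normalizations, variance model, array weights, the mean of a gene's probe sets and leaving out arrays or pairs. The tests were checked on simulated data with planted changes larger than any collagen difference between the groups given here. That check does not cover differences as small as those of the collagens.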

Additional observations from a re-analysis of the deposited data

Results flagged for a closer look

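Within groups of 4 arrays, 6 of 70 sets of values had 1 array far from the other 3 (the gap to the nearest value, divided by the whole range, was above Dixon's 95% critical value), and chance gives about 1 in 20. Control array 3 was high for Col15a1 (6784) and low for Col2a1 (338). Knockout array 3 was high for Col18a1 (5953) and for Col6a2 (36527). Knockout array 4 was low for Col2a1 (449), and control array 1 was low for Col4a6 (305).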

How the results depend on the processing

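The count of called collagens was 0 under every setting run, the pairing by a replicate block included, with a lowest limma adjusted p of 0.0863 (paired fit without pair 1). Of 227 values of named genes under the 10 settings other than leaving out arrays, 222 kept their direction and their side of the threshold. The others reversed, all near 0: Col1a1 to -0.025 and Col1a2 to -0.024 with median centring, Col1a1 to -0.0030 with quantile normalization, Col6a3 to 0.041 with array weights and Col3a1 to 0.080 with the mean of all its probe sets. The cause was not tested. The replicate block, the variance model and the filters cannot change the log2 difference of a probe set. Directions of named genes under these settings were thus fixed in advance, and the median with the block stayed at 0.080. The number of collagens above 0 was 26 of all 42 without a filter and 18 with median centring. It was 16 with the upper 40% of probe sets, a stricter filter that left fewer than 30 collagens, without Col4a3 and Col20a1. The median of all genes shifted by at most 0.026 under these settings. Leaving out arrays or pairs gave 11 to 22 collagens above 0, a median of -0.035 to 0.14, and 0 to 1 called processing and receptor genes. The log2 differences then ran from -0.14 to 0.11 for Col1a1, -0.060 to 0.050 for Col1a2, -0.165 to 0.065 for Col3a1, -0.056 to 0.29 for Col4a1, -0.165 to 0.115 for Col6a3, -0.14 to 0.60 for Col12a1 and -0.078 to 0.25 for Col18a1. Leaving out single arrays, 13 of 30 collagens kept their sign throughout. The deposited values carry no detection call, so dim signals such as those of Col4a3 and Col20a1 have no measured background.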
